A study of Capra hircus with 6 samples.

Results

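The genes described here are 10 matricellular and related extracellular-matrix genes, TNC, MXRA8, SMOC1, SMOC2, SBSPON, SPARC, SPARCL1, THBS1, THBS2 and POSTN, read in 6 messenger RNA libraries of a goat (Capra hircus) testis cell line. They were chosen by gene symbol from 16599 genes with values, after their read counts and FPKM in the 3 lines had been seen. Their differences between lines are therefore descriptions, no p-value is given for a member, and a statement that one rose or fell means only that it passed the threshold of a fit over all genes. All 10 had values, and all 10 passed the low-count filter that left 12665 genes tested.

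The cell line is mGSCs-I-SB, which the labels call spermatogonial stem cells, the germ cells that sustain sperm production. It was studied as shUCHL1, with short hairpin RNA against UCHL1, as shHSPA8, with hairpin RNA against HSPA8, and as shCON, with control hairpin RNA and a genotype labelled WT. Each line gave 2 libraries, and all 3 lines grew in medium with 10% fetal bovine serum. The series title sets UCHL1, a ubiquitin hydrolase of undifferentiated spermatogonia, against HSPA8, the constitutive cytosolic HSP70 chaperone. From the labels it is not known if a line is 1 clone or a pool, how many hairpins target each gene, or if replicate libraries stem from different cultures. Any p-value here therefore reflects how far apart the 2 libraries of each line lie, and that distance may be technical. The 3 lines share 1 estimate of this spread per gene, although their replicate libraries differed by unlike amounts, as given below.

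Matricellular proteins are secreted into the extracellular matrix but do not build its fibres. They bind collagens, integrins, proteases and growth factors, and so tune adhesion, matrix turnover and the supply of TGF-beta and BMP ligands. In the testis such proteins are made largely by somatic cells, the peritubular, interstitial and Sertoli cells around the germ cells. Most tissues make little tenascin-C, periostin or thrombospondin in the adult, and more during repair.

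Total read counts ran from 1.57e+07 to 1.64e+07 per library. UCHL1 stood at 94.3 and 97.7 CPM in shUCHL1, against 405 and 451 CPM in shCON, where CPM is the read count scaled to TMM-adjusted library size. HSPA8 stood at 2631 and 2528 CPM in shHSPA8, against 4016 and 4112 CPM in shCON. In shUCHL1, HSPA8 was above both shCON libraries, at 5252 and 5345 CPM (log2 fold change over shCON 0.38, SE 0.07). The chi-square per degree of freedom between replicate libraries was 2.39 in shUCHL1, 12.1 in shHSPA8 and 22.7 in shCON, above the value of 1 that sampling noise alone gives, so none was counted as a copy of another. Of 22 markers of spermatogonial stem cells and progenitors, 13 had values, and 7 of these stayed under 1 FPKM in every library, among them GFRA1 with at most 0.12 and DDX4 with at most 0.67 FPKM. The other 6 were UCHL1, THY1, ITGA6, FOXO1, ETV5 and ID4, with ETV5 at 6.08 to 8.41 and THY1 at 37.7 to 98.3 FPKM. The markers of this list without values were ZBTB16, DAZL, NANOS2, NANOS3, SALL4, LIN28A, STRA8, UTF1 and TSPAN8. The whole list summed to 193 and 199 FPKM in shUCHL1, 594 and 525 FPKM in shHSPA8, and 606 and 663 FPKM in shCON, most of it UCHL1. All 15 markers of peritubular myoid cells and fibroblasts had values, 1 of them under 1 FPKM, and their FPKM summed to between 10423 and 13461. Other somatic lists were mixed. Among leukocyte markers PTPRC had at most 0.04 FPKM, but LCP1 reached 123 FPKM and CD14 stood at 11.03 to 19.3 FPKM. Among endothelial markers PECAM1 had at most 0.22 FPKM, but EMCN had 5.73 to 43.5 FPKM. STAR of Leydig cells had at most 0.59 FPKM, but NR5A1 had 4.27 to 7.43 FPKM. AMH of Sertoli cells had at most 0.59 FPKM, but SOX9 had 6.78 to 19.9 FPKM and GATA4 9.95 to 21.8 FPKM. Thus 6 of the 22 listed markers of spermatogonial stem cells and progenitors reached 1 FPKM in any library. The matrix genes were read in cells with a high level of fibroblast markers. Whether the cells were germ cells was not tested. In bulk RNA, fewer cells of a type and less RNA per cell cannot be told apart.

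The matricellular genes parted by line rather than moving as a block. TNC and MXRA8 were high in shHSPA8 alone, SMOC2 was low in shHSPA8 alone, and THBS1 was low in shUCHL1 alone. SMOC1 and THBS2 were higher in both knockdown lines than in shCON, and SBSPON was lower in both. SPARCL1 was lower in shUCHL1 and higher in shHSPA8 than in shCON, though its call in shHSPA8 was lost under most alternatives, as given below. SPARC was a little higher in shHSPA8, and POSTN was too low to read.

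Against shCON, 2 members were higher and 3 lower in shUCHL1 at an adjusted p under 0.05 in edgeR's quasi-likelihood test, where 8.54% of all tested genes were higher and 7.15% lower. In shHSPA8, 6 members were higher and 2 lower than in shCON, where 8.66% of all tested genes were higher and 6.02% lower. Between the knockdown lines, 1 member was higher and 7 were lower in shUCHL1 than in shHSPA8, where 6.20% of all tested genes were higher and 8.35% lower. The genes were chosen with these 3 comparisons in view, so nothing is read from their counts, and both knockdown lines were set against the same shCON libraries. Scaling by library totals alone gave 1368 higher among 2009 changed genes in shUCHL1 against shCON, where TMM scaling gave 1082 of 1987, and 1339 of 2079 in shUCHL1 against shHSPA8, where TMM scaling gave 785 of 1843. No changed member altered its direction or its call under that scaling. Without shHSPA8 replicate 1, the members changed in shHSPA8 numbered 5 of 10 rather than 8, with SPARC, SPARCL1 and SBSPON no longer past the threshold.

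**Figure D1:**
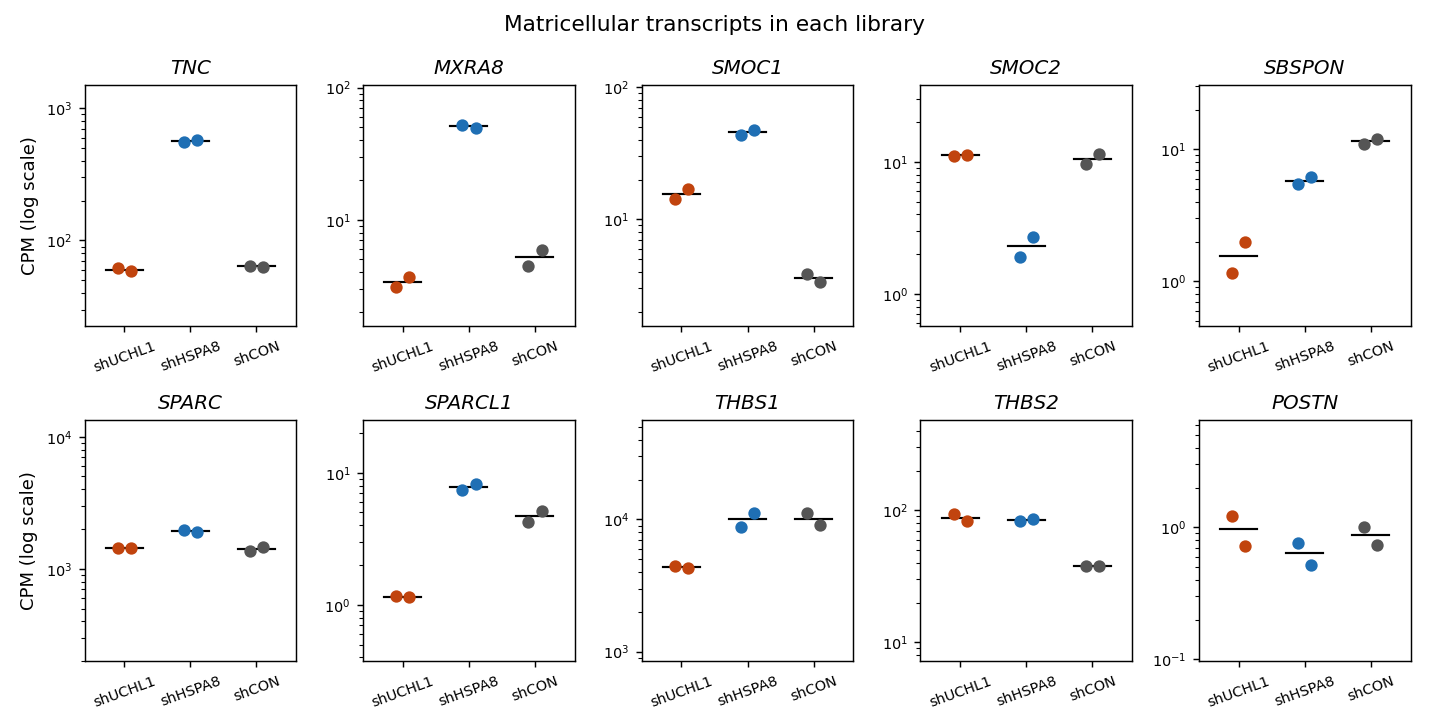
CPM on a log scale for each of the 10 genes, with 1 point per library, a horizontal line at the mean of the 2 libraries of a line, and the lines shUCHL1, shHSPA8 and shCON from left to right. TNC and MXRA8 stand about an order of magnitude higher in shHSPA8 than in the other lines, and SMOC2 stands lowest there.

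TNC encodes tenascin-C, a large multi-armed glycoprotein that binds fibronectin and loosens cell adhesion, and is made in embryonic mesenchyme, wounds and tumour stroma. It stood at 61.6 and 58.3 CPM in shUCHL1, 557 and 577 CPM in shHSPA8, and 64.6 and 63.4 CPM in shCON. Both shHSPA8 libraries were far above all others, and the shUCHL1 and shCON libraries lay within a few CPM of each other. The level in shHSPA8 was 8.86-fold that in shCON (log2 fold change 3.15, SE 0.09), rank 61 from the top among 12665 tested genes. In shUCHL1 the log2 fold change over shCON was -0.09 (SE 0.08), which did not pass the threshold. Between the knockdown lines TNC was 9.45-fold lower in shUCHL1 than in shHSPA8 (-3.24, SE 0.09).

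MXRA8 encodes a membrane adhesion protein with immunoglobulin domains, known in human and mouse as an entry receptor for arthritogenic alphaviruses, and so differs from the secreted members. It stood at 3.12 and 3.66 CPM in shUCHL1, 52.3 and 49.8 CPM in shHSPA8, and 4.43 and 5.94 CPM in shCON. The shHSPA8 libraries were again far above the rest, and the shUCHL1 libraries were the lowest. Relative to shCON, MXRA8 was 9.82-fold higher in shHSPA8 (log2 fold change 3.30, SE 0.16). In shUCHL1 its log2 fold change over shCON was -0.61 (SE 0.19), which did not pass the threshold, but passed it without shCON replicate 1 (-0.83) and after a correction for transcript length chosen after seeing the data (-0.60). At 15.0-fold lower in shUCHL1 than in shHSPA8 (-3.91, SE 0.17), MXRA8 had the widest gap between the knockdown lines among the 10 genes.

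By the root mean square distance of log2 CPM over the 6 libraries, each centred on its mean, MXRA8 was also the gene whose pattern lay nearest to that of TNC, at 0.32 log2 units. CRMP1 (0.42) and CPPED1 (0.46) came next among genes with at least 5 CPM on average over the 6 libraries. Both were under 5 CPM in every shUCHL1 and shCON library, and passed that minimum only through shHSPA8. MXRA8 too passed it only through shHSPA8, with means of 3.39 CPM in shUCHL1, 51.1 CPM in shHSPA8 and 5.18 CPM in shCON. CRMP1 stood at 2.81 and 1.92 CPM in shUCHL1, 13.1 and 10.7 CPM in shHSPA8, and 1.71 and 1.53 CPM in shCON. A shared step in shHSPA8 follows from choosing genes by likeness to TNC.

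SMOC1 and SMOC2 are paralogues of the SPARC family, secreted calcium-binding proteins of basement membranes. SMOC1 is known in Xenopus as an antagonist of BMP signalling. The genes parted between the knockdown lines. SMOC1 stood at 14.4 and 16.9 CPM in shUCHL1, 43.6 and 47.6 CPM in shHSPA8, and 3.86 and 3.37 CPM in shCON. The order was shHSPA8, then shUCHL1, then shCON, with wide gaps and no overlap. SMOC2 stood at 11.1 and 11.3 CPM in shUCHL1, 1.90 and 2.72 CPM in shHSPA8, and 9.62 and 11.4 CPM in shCON. Here shHSPA8 was the lowest line, and the shUCHL1 libraries lay within the range of the shCON libraries.

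Relative to shCON, SMOC1 was 4.32-fold higher in shUCHL1 (log2 fold change 2.11, SE 0.16), and the log2 fold change of SMOC2 was 0.09 (SE 0.17), which did not pass the threshold. In shHSPA8, SMOC1 was 12.6-fold higher than in shCON (3.66, SE 0.15), rank 34 from the top of 12665 genes. SMOC2 was 4.55-fold lower there (-2.19, SE 0.20), rank 45 from the bottom. Set directly against shHSPA8, shUCHL1 had 2.92-fold less SMOC1 (-1.54, SE 0.13) and 4.84-fold more SMOC2 (2.27, SE 0.20). The counts behind the low values were 55 to 61 reads of SMOC1 per shCON library and 30 to 42 reads of SMOC2 per shHSPA8 library.

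Per unit of transcript length, in FPKM, the balance of the paralogues turned over. The ratio of SMOC1 to SMOC2 FPKM was 1.88 and 2.15 in shUCHL1, 33.5 and 25.7 in shHSPA8, and 0.588 and 0.416 in shCON. SMOC2 was thus the more abundant paralogue in both shCON libraries, and SMOC1 in all 4 knockdown libraries. In FPKM, SMOC1 stood at 25.9 and SMOC2 at 0.895 on average in shHSPA8.

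**Figure D2:**
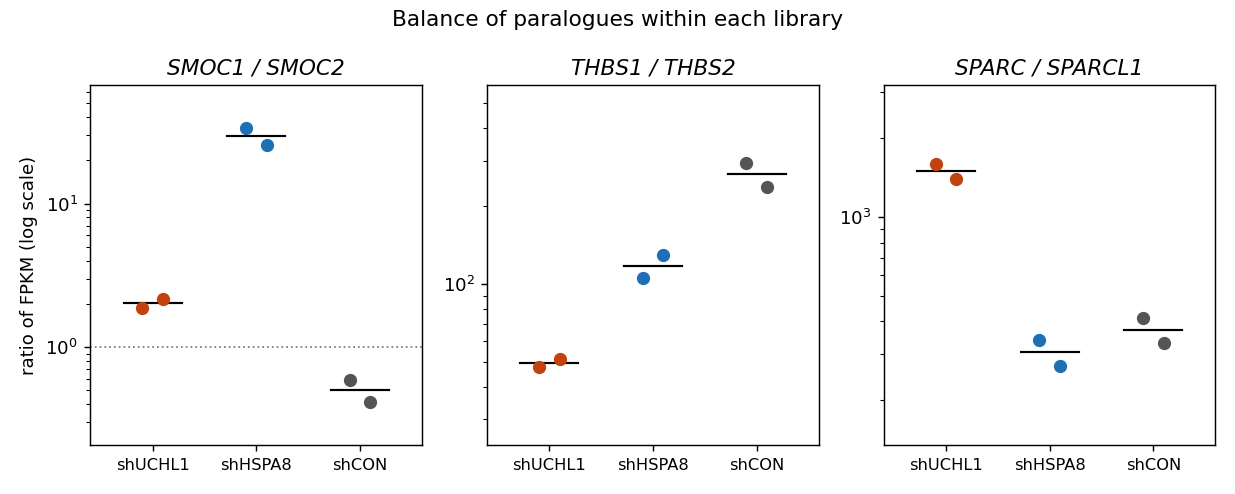
Ratio of FPKM within each library, on a log scale, for SMOC1 over SMOC2, THBS1 over THBS2 and SPARC over SPARCL1, with 1 point per library, a line at the mean, and a dotted line at equal FPKM for the SMOC pair. The SMOC ratio lies above 1 in the 4 knockdown libraries and below 1 in shCON, and the thrombospondin ratio is lowest in shUCHL1.

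The genes nearest to SMOC1 in pattern over the 6 libraries were PLA2G4A (0.23 log2 units), which encodes a cytosolic phospholipase A2, KIF26B (0.24) and JAKMIP2 (0.26). PLA2G4A stood at 48.4 and 39.3 CPM in shUCHL1, 103 and 112 CPM in shHSPA8, and 12.6 and 10.5 CPM in shCON. The order of its lines is that of SMOC1, by which it was chosen. Nearest to SMOC2 were CEP72 (0.16), which encodes a centrosomal protein, SEPW1 (0.30), a selenoprotein gene, and ISLR2 (0.31). CEP72 stood at 17.1 and 15.0 CPM in shUCHL1, 3.60 and 4.46 CPM in shHSPA8, and 16.3 and 16.8 CPM in shCON. Its low level in shHSPA8 is the pattern by which it was chosen.

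SBSPON encodes a secreted protein with a somatomedin B and a thrombospondin type 1 domain. It stood at 1.16 and 1.98 CPM in shUCHL1, 5.44 and 6.14 CPM in shHSPA8, and 10.95 and 12.1 CPM in shCON. The lines stepped down from shCON through shHSPA8 to shUCHL1 with no overlap. Relative to shCON, SBSPON was 7.29-fold lower in shUCHL1 (log2 fold change -2.87, SE 0.23), on 19 and 33 reads in shUCHL1 against 173 and 197 reads in shCON. In shHSPA8 it was 1.99-fold lower than in shCON (-0.99, SE 0.20). That call was lost without shHSPA8 replicate 1 (-0.91) or shHSPA8 replicate 2 (-1.08). Between the knockdown lines it was 3.67-fold lower in shUCHL1 than in shHSPA8 (-1.87, SE 0.25). The nearest pattern over the 6 libraries was that of UCHL1 (0.41 log2 units). FST (0.41), which encodes the activin-binding protein follistatin, and the muscle actin nucleator LMOD1 (0.43) were almost as near. A likeness to SBSPON follows from choosing genes by it. UCHL1 did not pass the threshold in shHSPA8 against shCON, where SBSPON was lower.

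THBS1 encodes thrombospondin-1, a trimeric glycoprotein that binds CD47 and CD36 and can activate latent TGF-beta. It was the most abundant member in every library, with 0.448% to 1.10% of all counts and a rank between 20 and 111 by FPKM among 16599 genes. THBS1 stood at 4478 and 4297 CPM in shUCHL1, 8844 and 11182 CPM in shHSPA8, and 11190.5 and 9051 CPM in shCON. Both shUCHL1 libraries were below all others, and the shHSPA8 and shCON libraries overlapped. The level in shUCHL1 was 2.31-fold below that in shCON (log2 fold change -1.21, SE 0.14) and 2.28-fold below that in shHSPA8 (-1.19, SE 0.14). In shHSPA8 the log2 fold change over shCON was -0.02 (SE 0.14), which did not pass the threshold, and its sign turned without shHSPA8 replicate 1 (0.14) or shCON replicate 1 (0.13).

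THBS2 encodes the paralogue thrombospondin-2, which lacks that activity towards TGF-beta and, in mouse, limits angiogenesis and the level of MMP2. It stood at 93.0 and 83.0 CPM in shUCHL1, 82.7 and 85.5 CPM in shHSPA8, and 37.5 and 37.6 CPM in shCON. The knockdown libraries overlapped with each other and lay well above shCON. THBS2 was 2.34-fold higher in shUCHL1 (log2 fold change 1.23, SE 0.10) and 2.24-fold higher in shHSPA8 (1.16, SE 0.10) than in shCON. The direct difference of shUCHL1 over shHSPA8 was 0.07 (SE 0.10), which did not pass the threshold. The ratio of THBS1 to THBS2 FPKM was 47.6 and 51.2 in shUCHL1, 106 and 129 in shHSPA8, and 294 and 238 in shCON. It was lower in every knockdown library than in either shCON library. In shUCHL1 the THBS1 and THBS2 values moved in opposite directions, and in shHSPA8 only THBS2 was changed.

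SPARC, also called osteonectin, encodes a collagen-binding protein that acts in collagen assembly and counters cell spreading. It stood at 1439 and 1438 CPM in shUCHL1, 1977 and 1893 CPM in shHSPA8, and 1357 and 1465 CPM in shCON. The shHSPA8 libraries were the highest, and the shUCHL1 libraries lay within the range of the shCON libraries. Relative to shCON, SPARC was 1.37-fold higher in shHSPA8 (log2 fold change 0.46, SE 0.08), a call that was lost without shHSPA8 replicate 1 (0.42). In shUCHL1 the log2 fold change over shCON was 0.03 (SE 0.08). Between the knockdown lines SPARC was 1.35-fold lower in shUCHL1 than in shHSPA8 (-0.43, SE 0.08). That call was lost without shUCHL1 replicate 1 (-0.43) or 2 (-0.43) and without shHSPA8 replicate 1 (-0.3995) or 2 (-0.46).

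SPARCL1, also called hevin, is the anti-adhesive relative of SPARC. It stood at 1.16 and 1.14 CPM in shUCHL1, 7.40 and 8.28 CPM in shHSPA8, and 4.24 and 5.14 CPM in shCON. The 3 lines did not overlap, and shUCHL1 was the lowest, with 19 reads in each library. The level in shUCHL1 was 4.06-fold below that in shCON (log2 fold change -2.02, SE 0.22) and 6.77-fold below that in shHSPA8 (-2.76, SE 0.21). In shHSPA8 it was 1.67-fold higher than in shCON (0.74, SE 0.17). That last call was lost in DESeq2 (0.73) and when any 1 library other than shCON replicate 2 was left out, with log2 fold changes of 0.73 and 0.73 without shUCHL1 replicate 1 and 2, 0.82 and 0.65 without shHSPA8 replicate 1 and 2, and 0.59 without shCON replicate 1. The ratio of SPARC to SPARCL1 FPKM was 1598 and 1396 in shUCHL1, 340.02 and 270.4 in shHSPA8, and 412 and 332 in shCON. The ratio was thus high in shUCHL1, and the shHSPA8 and shCON libraries overlapped.

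POSTN encodes periostin, which links collagen, tenascin-C and integrins in tissues under load. It stood at 1.22 and 0.719 CPM in shUCHL1, 0.759 and 0.517 CPM in shHSPA8, and 1.01 and 0.735 CPM in shCON, on 8 to 20 reads per library. The 3 lines overlapped. Its log2 fold change was 0.15 (SE 0.38) in shUCHL1 and -0.44 (SE 0.42) in shHSPA8 over shCON, and no difference was detectable at this depth.

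**Figure D3:**
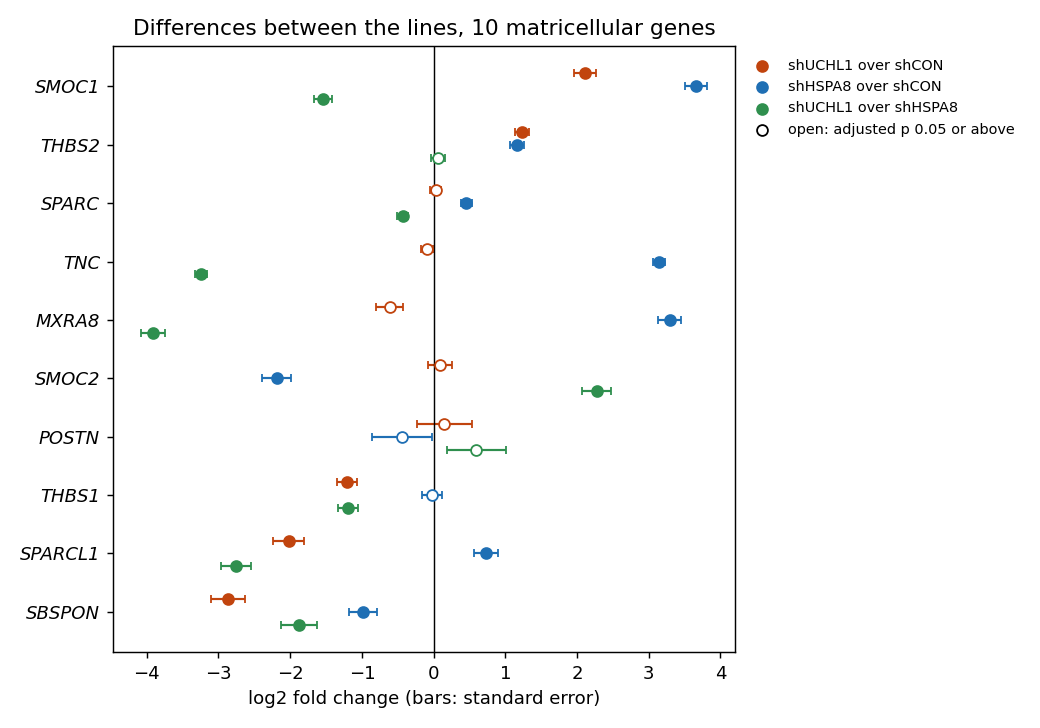
Log2 fold change with its standard error for the 10 genes, in shUCHL1 over shCON, shHSPA8 over shCON and shUCHL1 over shHSPA8, with open points where the adjusted p was 0.05 or above. SMOC1 and THBS2 lie to the right of 0 in both comparisons with shCON, SBSPON to the left in both, and SPARCL1 on opposite sides.

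By FPKM, which allows levels of different genes to be compared, THBS1 and SPARC led in every line. Their mean FPKM was 830 and 767 in shUCHL1, 1771 and 973 in shHSPA8, and 1815 and 716 in shCON. TNC came next in shHSPA8 with 79.2 FPKM on average, ahead of SMOC1 with 25.9 and MXRA8 with 25.0. In shUCHL1 the next was THBS2 with 16.8 FPKM, ahead of SMOC1 with 9.31 and TNC with 8.91, and in shCON it was SBSPON with 12.5, ahead of TNC with 9.29 and THBS2 with 6.82. POSTN stayed under 0.5 FPKM everywhere. The authors' deposited table gives log2 ratios of the same sign as this fit for all 10 genes in all 3 comparisons, and the difference from it was at most 0.03.

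Other matricellular genes were read from a list of 34, of which 32 had values and 26 were tested. In shUCHL1, 5 of the 26 rose and 3 fell against shCON (median log2 fold change 0.07, against 0.01 over all tested genes). In shHSPA8, 10 rose and 6 fell (median 0.24, against -0.0032 over all). Between the knockdown lines 3 were higher and 10 lower in shUCHL1 than in shHSPA8 (median -0.19, against 0.02 over all). These calls are those of edgeR's quasi-likelihood test over all genes, as are those of the lists and cell type markers that follow. Over all tested genes, 8.54% rose and 7.15% fell in shUCHL1, and 8.66% rose and 6.02% fell in shHSPA8. Between the knockdown lines 6.20% were higher and 8.35% lower in shUCHL1. Every list stands beside these shares. The lists were chosen with earlier results known, so nothing is read from their counts. Without shUCHL1 replicate 1 or 2 the changed genes numbered 5 and 4 in shUCHL1 and 6 and 6 between the knockdown lines, and without shHSPA8 replicate 1 they numbered 8 between the knockdown lines. The tilt towards higher genes in shUCHL1 was not stable, with 1 higher and 3 lower without shUCHL1 replicate 2, 2 and 3 without shUCHL1 replicate 1, 5 and 7 without shCON replicate 1, and 6 and 6 with length-corrected offsets.

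Among the CCN genes, CTGF and CYR61, targets of YAP signalling, were lower in both knockdown lines than in shCON. Other CCN genes went the other way, with NOV higher in both knockdown lines and WISP1 higher in shHSPA8. CTGF stood at 200.6 CPM on average in shUCHL1, 343 in shHSPA8 and 478 in shCON, with log2 fold changes over shCON of -1.25 (SE 0.08) and -0.48 (SE 0.08). CYR61 fell by 0.96 (SE 0.08) in shUCHL1 and by 0.51 (SE 0.08) in shHSPA8 on the log2 scale.

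SPP1, which encodes osteopontin, stood at 94.8 and 94.0 CPM in shUCHL1, 401 and 382 CPM in shHSPA8, and 63.2 and 61.9 CPM in shCON. Unlike TNC, SPP1 was also called higher in shUCHL1 than in shCON. It was highest in shHSPA8, with a log2 fold change over shCON of 2.65 (SE 0.08). TGFBI, a collagen-binding protein induced by TGF-beta, rose there as well (1.09, SE 0.09). SPON2 (-1.65, SE 0.25), WISP2 (-1.53, SE 0.20) and the fibulin gene FBLN1 (-1.45, SE 0.11) fell in shHSPA8, the direction of SMOC2. FBLN1 stood at 78.7 and 79.6 CPM in shUCHL1, 37.9 and 35.2 CPM in shHSPA8, and 92.9 and 107 CPM in shCON. In shUCHL1, ECM1 rose (1.19, SE 0.22), and lost its call without shUCHL1 replicate 2. IBSP, which encodes bone sialoprotein and averaged under 5 CPM over the 6 libraries, rose by more (2.49, SE 0.20), with 6.48 and 5.88 CPM in shUCHL1, 7.33 and 6.66 CPM in shHSPA8, and 1.14 and 1.04 CPM in shCON.

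Receptors for these proteins include integrin subunits, syndecans and scavenger receptors. Of 26 tested genes from a list of 29, 3 rose and 5 fell in shUCHL1 against shCON, with a median log2 fold change of 0.14. Over all tested genes 8.54% rose and 7.15% fell in that comparison, with a median of 0.01. When either shUCHL1 library was left out, 1 receptor gene passed the threshold in place of 8, and length-corrected offsets gave 14. The split depended on the scaling, with 5 higher and 4 lower under library totals alone, 4 and 3 in limma on log2(FPKM + 0.1), and 1 and 6 in DESeq2. In shHSPA8, 5 rose and 3 fell (median 0.15), and between the knockdown lines none was higher and 6 were lower in shUCHL1 (median -0.07), or 3 when either shUCHL1 library was left out. Library totals alone gave 2 higher and 6 lower there. The collagen receptor subunit ITGA2 stood at 10.3 and 10.1 CPM in shUCHL1, 23.4 and 30.7 CPM in shHSPA8, and 30.3 and 22.3 CPM in shCON, and fell in shUCHL1 (-1.37, SE 0.20). LRP1, the scavenger receptor that clears thrombospondins and their protease complexes, rose in shHSPA8 (0.93, SE 0.08). ILK, a kinase bound to integrin tails, fell in shUCHL1 (-0.61, SE 0.10) and in shHSPA8 (-0.54, SE 0.10). The call of ILK was lost without either shUCHL1 library in the first comparison and without shHSPA8 replicate 2 in the second.

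Proteases release, cut or clear matricellular proteins. Of 14 tested genes from a list of 19, 8 rose and 1 fell in shUCHL1 (median log2 fold change 0.41), and 8 rose and none fell in shHSPA8 (median 0.87). Against shHSPA8, none was higher and 8 were lower in shUCHL1 (median -0.57), or 1 higher and 6 lower under library totals alone. Leaving out either shUCHL1 library gave 5 changed genes in shUCHL1 against shCON and 5 between the knockdown lines. MMP2, a gelatinase whose level thrombospondin-2 controls in mouse, stood at 851 and 867 CPM in shUCHL1, 1673 and 1550 CPM in shHSPA8, and 315 and 364 CPM in shCON. The 3 lines did not overlap, and the log2 fold change over shCON was 1.34 (SE 0.10) in shUCHL1 and 2.25 (SE 0.10) in shHSPA8. MMP3 rose by 1.52 (SE 0.12) and 2.75 (SE 0.12), and ADAMTS5 by 2.22 (SE 0.32) and 2.56 (SE 0.32), in the same order of lines. MMP1 rested on 8 and 9 reads in the shCON libraries. ADAMTS1, which cleaves thrombospondins, was the one that fell in shUCHL1 (-1.01, SE 0.10), with 73.5 and 67.7 CPM there, 180 and 186 CPM in shHSPA8, and 152 and 132 CPM in shCON.

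Ligands, receptors and regulators of TGF-beta and BMP signalling were read from a list of 37, with 27 tested. In shUCHL1, 7 rose and 3 fell against shCON (median log2 fold change 0.14), and in shHSPA8 10 rose and 3 fell (median 0.27). Between the knockdown lines 2 were higher and 4 lower in shUCHL1 (median -0.11). Leaving out shUCHL1 replicate 1 or 2 gave 6 and 5 changed genes in shUCHL1 against shCON and 1 and 1 between the knockdown lines, and leaving out either shCON library gave 11 between them. Fitting only the lines compared gave 11, and length-corrected offsets gave 12. Library totals alone gave 3 higher and 3 lower between the knockdown lines. FST stood at 47.2 and 45.3 CPM in shUCHL1, 103 and 108 CPM in shHSPA8, and 199 and 205 CPM in shCON. Its steps ran in the order of SBSPON, with log2 fold changes over shCON of -2.13 (SE 0.09) in shUCHL1 and -0.94 (SE 0.09) in shHSPA8. LTBP1, which anchors latent TGF-beta to the matrix, rose in shUCHL1 (1.66, SE 0.14) and in shHSPA8 (1.26, SE 0.14). The receptor genes TGFBR3 (1.603, SE 0.21 and 2.18, SE 0.21) and TGFBR2 (0.93, SE 0.09 and 1.16, SE 0.09) rose in both lines. The ligand gene TGFB1 fell in both lines, and FSTL3 fell in shUCHL1 (-0.70, SE 0.16). With the replicate number as a block, 1 gene of the list fell in shUCHL1 and 2 fell in shHSPA8. ID3, a target of BMP signalling, was lower in shUCHL1 than in shHSPA8 (-0.54, SE 0.11), a call that was lost without either shUCHL1 library or without shHSPA8 replicate 1.

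**Figure D4:**
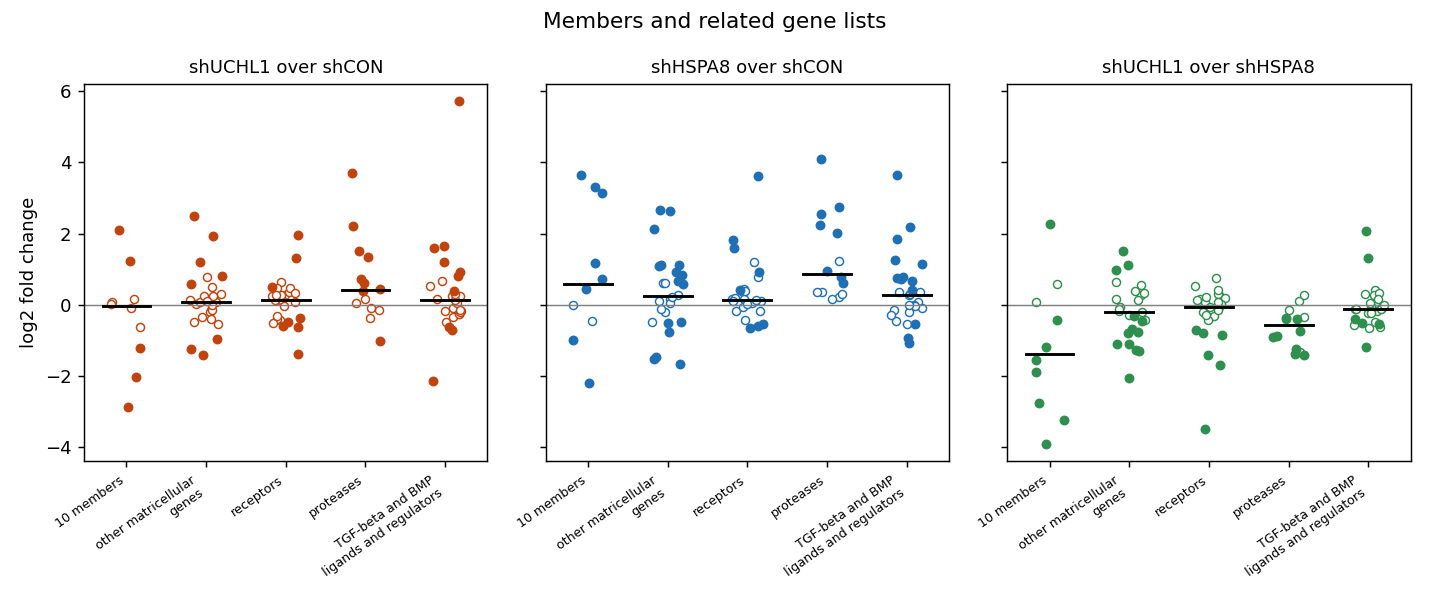
Log2 fold change of each tested gene (filled points: adjusted p under 0.05, horizontal bars: medians) for the 10 members and the 4 related lists, in shUCHL1 over shCON, shHSPA8 over shCON and shUCHL1 over shHSPA8. Proteases lie mostly above 0 in both comparisons with shCON, and the highest point in shUCHL1, the BMP antagonist NOG, rests on 0 and 1 reads in the shCON libraries.

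Markers of peritubular myoid cells and fibroblasts moved beside these genes. Of the 15 tested, 3 rose and 7 fell in shUCHL1 against shCON, 5 rose and 2 fell in shHSPA8, and 8 were lower and none higher in shUCHL1 than in shHSPA8. Their FPKM summed to 10423 and 10658 in shUCHL1, 13461 and 12990 in shHSPA8, and 11343 and 12363 in shCON. The shUCHL1 libraries were the lowest and the shHSPA8 libraries the highest, without overlap. As examples chosen after their values were seen, smooth-muscle actin ACTA2 stood at 369 and 393 FPKM in shUCHL1, 872 and 749 FPKM in shHSPA8, and 974 and 1190 FPKM in shCON, which was lowest in shUCHL1. DCN, the collagen-binding proteoglycan decorin, stood at 785 and 829 FPKM in shUCHL1, 711 and 669 FPKM in shHSPA8, and 362 and 358 FPKM in shCON. Of 8 endothelial markers, all 8 had values, summing to between 8.20 and 9.46 FPKM in shUCHL1, 6.49 and 7.13 in shHSPA8, and 41.7 and 44.1 in shCON. Of these markers, 7 stayed under 1 FPKM in every library. EMCN alone had 7.06 and 8.36 FPKM in shUCHL1, 6.25 and 5.73 in shHSPA8, and 43.5 and 41.0 in shCON. VWF rose in shUCHL1 and KDR in shHSPA8, both among the 7. Of 10 leukocyte markers, 8 had values. They summed to between 53.8 and 59.4 FPKM in shUCHL1, 85.0 and 87.1 in shHSPA8, and 137 and 141 in shCON. Most of each sum was LCP1, with 35.9 FPKM on average in shUCHL1, 61.99 in shHSPA8 and 122.7 in shCON. CD14 went the other way, with 16.03 FPKM on average in shUCHL1, 18.5 in shHSPA8 and 11.52 in shCON. CD14 was called higher in shHSPA8, and CORO1A was called lower in shUCHL1. Of 12 Sertoli markers, 10 had values and 8 were tested, summing to 56.1 and 55.4 FPKM in shUCHL1, 42.5 and 51.6 FPKM in shHSPA8, and 67.1 and 60.7 FPKM in shCON. WT1, GDNF and GATA4 fell and INHBB rose in shUCHL1, and SOX9 and GATA4 fell in shHSPA8. The 3 falls in shUCHL1 depended on the processing. Library totals alone, the replicate number as a block, and limma on log2(FPKM + 0.1) each gave 1 Sertoli marker higher and 0 lower there. Of 8 Leydig cell markers, 3 had values, summing to 6.46 and 8.02 FPKM in shUCHL1, 5.99 and 6.29 FPKM in shHSPA8, and 4.66 and 5.17 FPKM in shCON. Among the 9 tested spermatogonial markers, RET, ID4 and FOXO1 rose and UCHL1 and THY1 fell in shUCHL1, and ID4 and FOXO1 rose in shHSPA8. RET stayed under 1 FPKM in every library. With the replicate number as a block, 2 spermatogonial markers rose and 2 fell in shUCHL1. When either shUCHL1 library was left out, the rises in shUCHL1 were less stable than the falls. The part of these markers in the differences of the matricellular genes was not tested.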

How the data were processed

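Messenger RNA was sequenced from 6 libraries of 1 goat cell line, from 1.3 ug of total RNA each, per the labels' protocols. The submitters' processing notes name Trimmomatic 0.36. An aligner, a counter, a build and a strand rule were not given in the sources used here. The authors deposited 1 table of 33229 entries, 16599 of them with values. Per the file headers it holds an FPKM value and a read count per library. Some 1014 to 1117 genes per library have fractional counts, so these deposited values are expected counts, and they were rounded. All 10 members had whole counts, and their gene IDs matched RefSeq (ARS1.2). The authors' own log2 ratios and p-values for each pair of lines stand in the same table, per the file headers, with no test named.

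Differences over all genes were tested with edgeR's quasi-likelihood F test (edgeR 4.0.16, R 4.3.3) after filterByExpr and TMM scaling (factors 0.966 to 1.04), with group as the only term, all 6 libraries in 1 fit, and Benjamini-Hochberg adjustment over 12665 genes at 0.05. The SE is the log2 fold change divided by the square root of F. CPM uses the TMM factors, errors cover 2 libraries per line, and FPKM is as deposited. DESeq2 1.42.0 and limma 3.58.1 served as alternatives. Members and lists were chosen with earlier results of these data known. Besides members and targeted genes, the naming rule took up to 4 called genes per list and comparison with at least 5 CPM, by size of change, and the 3 nearest patterns of 4 members; not all are described, and 1 gene it took is not reported here. That minimum is a mean over the 6 libraries, and IBSP fell short of it. IBSP, NOV, WISP1, TGFB1 and FSTL3 were named outside the rule, after their values were seen. No sequences are printed, since only a table of gene names was at hand.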

Additional observations from a re-analysis of the deposited data

Results flagged for a closer look

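The change against shCON differed between the knockdown lines for 8 of the 10 genes, by the direct comparison of shUCHL1 with shHSPA8 in edgeR's quasi-likelihood test over all genes, where 6.20% of all tested genes were higher and 8.35% lower in shUCHL1. Since the genes were chosen with that comparison in view, the values are descriptions. On the log2 scale, the change in shUCHL1 minus that in shHSPA8 was -3.91 for MXRA8, -3.24 for TNC, -2.76 for SPARCL1, -1.87 for SBSPON, -1.54 for SMOC1, -1.19 for THBS1 and -0.43 for SPARC. SMOC2 was the exception in sign, at 2.27. Lines with 2 libraries were not examined for outlying samples.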

How the results depend on the processing

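Over the alternatives tried, 393 log2 fold changes of the 10 genes in the 3 comparisons kept their direction and their side of the threshold, 17 lost their call and 2 gained one. The 8 that turned sign were all below the threshold. In shUCHL1 against shCON they were SMOC2 (-0.053) and SPARC (-0.051) without shCON replicate 1, and POSTN without shUCHL1 replicate 1 (-0.29) or shCON replicate 2 (-0.07). Leaving out 1 library in turn gave up to 0.21 for SMOC2, 0.0797 for SPARC and 0.47 for POSTN there. The others were THBS1 in shHSPA8 without shHSPA8 replicate 1 (0.14) or shCON replicate 1 (0.13), and THBS2 between the knockdown lines without shUCHL1 replicate 1 (-0.0216) or with length-corrected offsets (-0.0022). Leaving out 1 library in turn gave 528 to 2615 changed genes in shUCHL1 against shCON, 920 to 2416 in shHSPA8 against shCON and 257 to 3083 between the knockdown lines, with 5 to 6, 5 to 8 and 7 to 8 members among them. Fitting only the lines compared gave 1104 changed genes in shHSPA8 against shCON and 3116 between the knockdown lines. Length-corrected offsets, chosen after seeing the data, gave 2888 between the knockdown lines. With the replicate number as a block, 1230 genes were changed in shUCHL1 against shCON, 1131 in shHSPA8 against shCON and 923 between the knockdown lines. The calls of SPARCL1 in shHSPA8 and of SPARC between the knockdown lines were lost under that block, no other member call changed, and the changed receptor genes in shUCHL1 numbered 5 in place of 8. The labels give no pairing, and the deviations of same-numbered libraries correlated across genes at -0.20 for shUCHL1 with shHSPA8, 0.22 for shUCHL1 with shCON and -0.50 for shHSPA8 with shCON. Library totals moved the median of all genes between the knockdown lines to 0.12, against 0.02 with TMM. SPARCL1 in shHSPA8 also lost its call when only the lines compared were fitted and in limma on log2(FPKM + 0.1). The cause of these shifts was not tested. With 8 to 42 reads per library, POSTN, SPARCL1 and SBSPON in shUCHL1 and SMOC2 in shHSPA8 were limited by depth.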
